A study of Mus musculus with 6 samples.

Results

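The genes described here are 9 regulators of naive, memory and effector fate in T cells: Il7r, Tcf7, Lef1, Foxo1, Bach2, Id3, Satb1, Eomes and Tbx21. They were chosen by name, and each was read from the probe set that names exactly 1 of these symbols in the platform's probe table. This gave 8 genes with 1 probe set each, among 19938 genes on the array. Tcf7 was not analysed here. RNA came from splenic T cells of 6 B6D2F1/J mice, 1 array per mouse, on day 10 after bone marrow transplantation. In 3 mice rapamycin had been injected into the peritoneum at 1.5 mg/kg every second day, and 3 control mice were injected with phosphate-buffered saline (PBS). All 6 were lethally irradiated F1 recipients given T cell-depleted marrow from the B6 parental strain, a setting described as allogeneic. Some recipients in the protocol were also given B6 spleen cells, and whether these 6 mice were is not stated. Cells were sorted on CD3 alone, so CD4 and CD8 cells, and donor and host cells, lie in 1 sample.

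A naive T cell is kept quiescent, alive and circulating by a small set of transcription factors. FOXO1 drives genes for survival and lymph node homing, among them Il7r and Klf2, and the kinase AKT, acting downstream of PI3K and the second mTOR complex, removes FOXO1 from the nucleus. TCF1 (encoded by Tcf7) and LEF1 share a DNA-binding HMG box and support naive and memory cells, BACH2 holds back effector genes, and ID3 blocks E proteins. The T-box factors T-bet (encoded by Tbx21) and EOMES turn on cytotoxic and interferon-gamma genes, with T-bet tied more to terminal effectors and EOMES more to memory cells. Rapamycin inhibits mTOR and is known in mice to favour memory formation in CD8 T cells. The comparison asked whether the transcripts of these regulators differ in T cells of treated recipients.

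Values are log2 expression after RMA, so 1 unit is a factor of 2 and every difference is rapamycin minus PBS. None of the 8 genes passed the test, limma's moderated test with an adjusted p under 0.05 over all genes. The background was 1 gene of 19938, or 0.00502%, namely Glp1r, the receptor for glucagon-like peptide 1. At an unadjusted p under 0.05 there were 2 of the 8, where 4.67% of all genes reached that level. They were Satb1, higher, as in 1.6% of all genes, and Foxo1, lower, as in 3.07%. These were also the only members of the 8 whose groups did not overlap, against 9.42% of all genes, or 3.14% higher and 6.28% lower with rapamycin. Of the 8 differences 7 were negative, as were 55.3% of all genes, and the median was -0.15 against -0.01 over all genes. With 8.44 degrees of freedom and a median standard error of 0.0955 log2 over all genes, the number of arrays limits how small a difference can be told from 0.

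**Figure D1:**
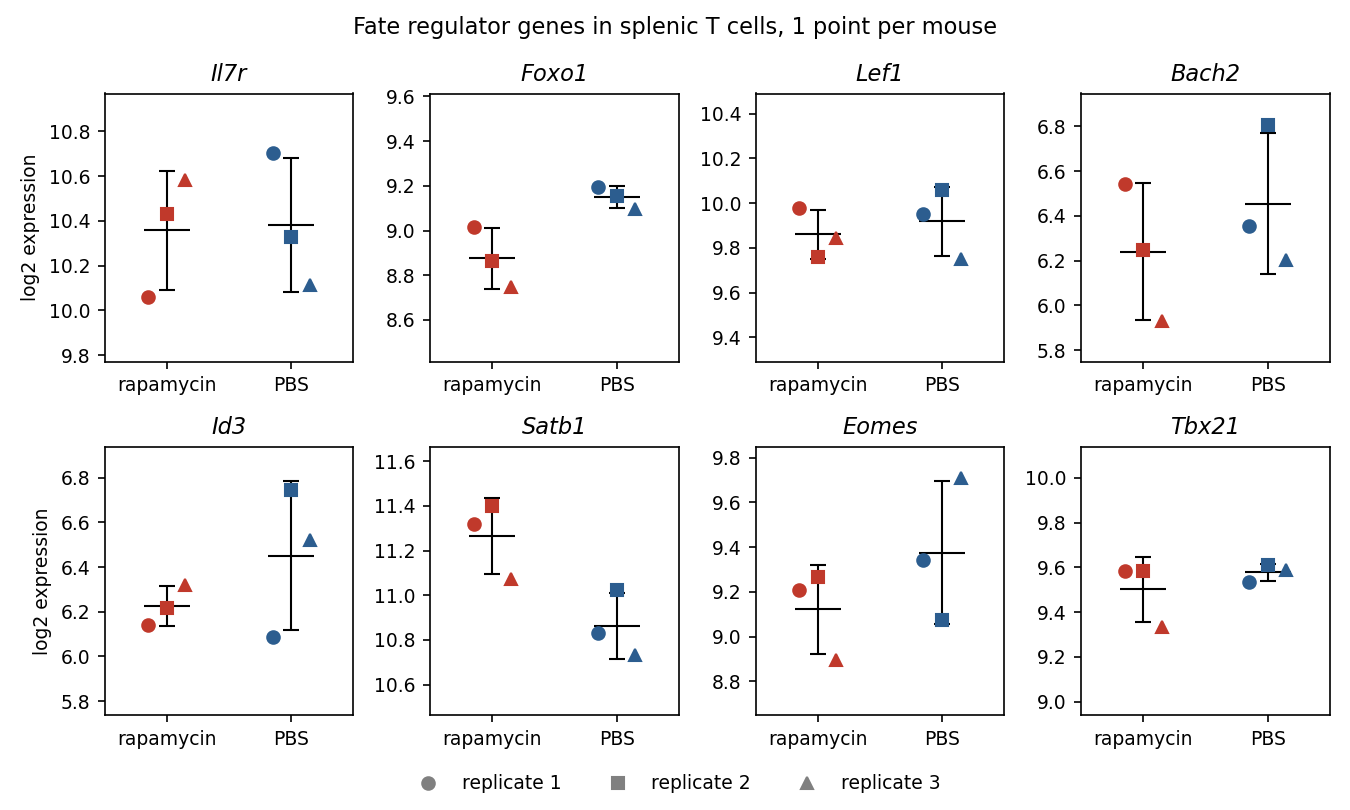
Log2 expression of the 8 measured fate regulators (vertical axis, the same span in each panel) in rapamycin mice (red, left) and PBS mice (blue, right). Each symbol is 1 mouse, its shape gives the replicate number, and the black line and bar are the group mean and SD (n = 3 each). The groups separate for Foxo1 and Satb1 and overlap for the other 6 genes.

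Satb1, which encodes a chromatin organiser that T cells carry from the thymus onward, was the only member with a positive difference. It measured 11.32, 11.40 and 11.07 in the rapamycin mice, against 10.83, 11.03 and 10.73 in the PBS mice. All rapamycin mice lay above all PBS mice, but the gap between the nearest 2 mice was only 0.05 log2. The means were 11.26 ± 0.17 with rapamycin and 10.86 ± 0.15 with PBS (SD, n = 3 each). The difference was 0.40 (SE 0.11, 95% interval 0.14 to 0.66), a 1.32-fold higher level, with an unadjusted p of 0.00692 and an adjusted p of 0.967 in limma. Across all genes 139 had a smaller p. The exact permutation test over the 6 mice, two-sided, gave p = 0.1 for Satb1, which is the smallest that 3 against 3 mice allow.

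Foxo1 lay in the other direction. It measured 9.02, 8.86 and 8.75 in the rapamycin mice, against 9.20, 9.15 and 9.10 in the PBS mice. The PBS mice lay within a narrow band and every rapamycin mouse lay below it, the nearest by 0.08 log2. The means were 8.88 ± 0.14 with rapamycin and 9.15 ± 0.05 with PBS (SD, n = 3 each). The difference was -0.27 (SE 0.09, 95% interval -0.48 to -0.07), a 1.21-fold lower level, with an unadjusted p of 0.0152 and an adjusted p of 0.982 in limma. The array measures Foxo1 transcript, and the AKT-controlled step acts on where the protein sits, which was not measured. The exact permutation test gave p = 0.1 for Foxo1 as well.

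Because Satb1 and Foxo1 are the members whose groups did not overlap, the 250 bases before a start site of each are shown, from RefSeq on GRCm38.p6. Foxo1 lies on chromosome 3, and its window is chr3:52268087-52268336 on the plus strand. Satb1 lies on chromosome 17 and has 5 start sites in the table. The window shown for it, chr17:51812185-51812434 on the minus strand, is 1 of the 2 that hold the most motifs searched. Capitals mark motif matches on either strand.
Foxo1: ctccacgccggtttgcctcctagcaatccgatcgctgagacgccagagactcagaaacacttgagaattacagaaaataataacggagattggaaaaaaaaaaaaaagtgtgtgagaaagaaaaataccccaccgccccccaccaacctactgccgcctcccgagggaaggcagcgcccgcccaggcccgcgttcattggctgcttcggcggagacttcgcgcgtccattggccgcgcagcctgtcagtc
Satb1: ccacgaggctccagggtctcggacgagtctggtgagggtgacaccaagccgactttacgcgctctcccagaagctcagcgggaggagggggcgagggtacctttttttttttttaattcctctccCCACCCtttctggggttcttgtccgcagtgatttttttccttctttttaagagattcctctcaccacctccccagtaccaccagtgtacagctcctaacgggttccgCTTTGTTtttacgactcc
The motifs searched were GTAAACA for FOXO factors, CTTTGTT for TCF and LEF factors, GGTGTGA for T-box factors and CCACCC for KLF factors. The T-box and KLF letters share GGTG on opposite strands. The Satb1 window held CTTTGTT, found in 5.03% of all 32851 promoter windows, and CCACCC, found in 28.1%. The Foxo1 window held none of the 4. Over the 15 windows of the 8 genes, CCACCC was found in 7, all of them windows of Lef1, Id3 or Satb1. Of these 7, 2 are Lef1 windows that overlap each other and share the same CCACCC site. CTTTGTT was found in 2, both of these Satb1 windows that overlap each other and share the same site. GTAAACA and GGTGTGA were found in 0 of the 15, against 3.17% and 3.33% of all windows. GC content was 56% in the Foxo1 window and 53.2% in the Satb1 window.

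The remaining naive and memory regulators had overlapping groups. Il7r encodes the alpha chain of the receptor for interleukin 7, on which naive and memory cells depend for survival. It measured 10.06, 10.43 and 10.58 in the rapamycin mice, against 10.71, 10.33 and 10.11 in the PBS mice. Both groups spanned nearly the same range, and the difference was -0.02 (SE 0.17, 95% interval -0.42 to 0.37). This interval allows a level from 0.746 to 1.30 times that of the PBS mice, so a modest change either way was not detectable with 3 arrays per group.

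Lef1 measured 9.98, 9.76 and 9.84 in the rapamycin mice, against 9.95, 10.06 and 9.75 in the PBS mice. All rapamycin mice lay between the lowest and the highest PBS mouse, and the difference was -0.06 (SE 0.10, 95% interval -0.29 to 0.18). Levels outside 0.817 to 1.13 times that of the PBS mice lay beyond this interval.

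Bach2 and Id3 lay near the array medians of 6.03 to 6.17, where RMA compresses differences. Bach2, the repressor that holds back effector genes, measured 6.54, 6.25 and 5.93 in the rapamycin mice, against 6.35, 6.81 and 6.20 in the PBS mice. Its spread within each group, 0.31 with rapamycin and 0.31 with PBS (SD, n = 3 each), was larger than the difference of -0.22 (SE 0.19). That difference was -0.37 without rapamycin replicate 1, -0.34 without PBS replicate 3, -0.06 without rapamycin replicate 3 and -0.04 without PBS replicate 2. Id3, the inhibitor of E proteins, measured 6.14, 6.22 and 6.32 in the rapamycin mice, against 6.09, 6.74 and 6.52 in the PBS mice. PBS replicate 1 was the lowest of all 6 and PBS replicates 2 and 3 the highest, so the difference of -0.23 (SE 0.15) came with unequal spreads of 0.09 with rapamycin and 0.33 with PBS. Without PBS replicate 1, the Id3 difference was -0.41 (unadjusted p = 0.00637, adjusted p = 0.9996 in limma), and without PBS replicate 2 it was -0.08 (unadjusted p = 0.587 in limma).

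The T-box pair differed in spread more than in direction. Eomes measured 9.21, 9.26 and 8.89 in the rapamycin mice, against 9.34, 9.07 and 9.71 in the PBS mice. Rapamycin replicate 3 was lowest and PBS replicate 3 highest, with the groups overlapping through PBS replicate 2. The difference was -0.25 (SE 0.16, 95% interval -0.63 to 0.12). It depended on single mice: it was -0.40 without PBS replicate 2 (unadjusted p = 0.0337, adjusted p = 0.9996 in limma), -0.14 without rapamycin replicate 3 and -0.09 without PBS replicate 3 (unadjusted p = 0.564 in limma).

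Tbx21 measured 9.59, 9.58 and 9.34 in the rapamycin mice, against 9.53, 9.61 and 9.59 in the PBS mice. Of the 6 values 5 lay between 9.53 and 9.61, and rapamycin replicate 3 lay below them. The difference was -0.08 (SE 0.09, 95% interval -0.28 to 0.13), which allows a level from 0.822 to 1.10 times that of the PBS mice. Tbx21 had the smallest range over the 6 mice of the 8 genes, 0.27, and Bach2 the largest, 0.88. Rapamycin replicate 3 was thus the lowest of the 6 mice for Foxo1, Bach2, Eomes and Tbx21, but not for Il7r, Lef1, Id3 or Satb1.

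**Figure D2:**
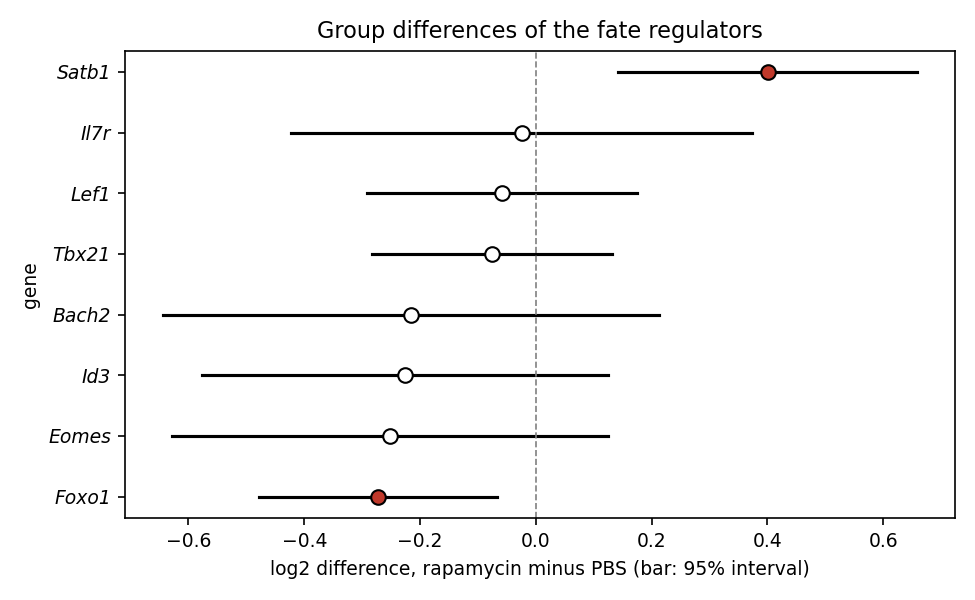
Log2 difference, rapamycin minus PBS, of each of the 8 genes (horizontal axis) with its 95% interval from limma (3 mice per group). Red points mark genes whose groups do not overlap. The unadjusted intervals of Satb1 (0.14 to 0.66) and Foxo1 (-0.48 to -0.07) leave out 0, and no gene passed after adjustment over 19938 genes.

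Genes with the profile most like a member were taken as those with the smallest root mean square gap over the 6 arrays after centring, among genes at or above the median mean. For Satb1 these were Pbk, a mitotic kinase, with a gap of 0.0695 log2, and Etv6, an ETS-family repressor, with 0.0832, beside a deviation of Satb1 itself of 0.239. For Foxo1 they were Phyhd1 with 0.0356 and Fbxl22 with 0.0427, beside 0.16 for Foxo1. With 6 arrays and this many genes, close profiles are easily found, and no test was made of them.

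Targets and partners of the regulators were read from 7 lists. The naive list of genes known to be driven by FOXO1 or KLF2, or to mark naive cells, lay lower in each of its 14 measured genes, with a median of -0.21. None passed, and 4 reached an unadjusted p under 0.05, or 28.6% against 4.67% of all genes. The groups did not overlap for 5 of the 14, all lower with rapamycin, where 6.28% of all genes did so in that direction. The mean of the list per mouse was 9.04, 9.09 and 8.86 with rapamycin, against 9.32, 9.26 and 9.17 with PBS, so these means did not overlap either. Other lists also exceeded 4.67% at an unadjusted p under 0.05. The share was 15.4% (2 of 13) for memory precursor genes and 15.8% (3 of 19) for T-bet and EOMES genes. It was 13.3% (2 of 15) for effector factor and 21.4% (3 of 14) for paralogue genes. Each share thus rests on few genes, and some genes stand in several lists. It was 0% for the IL-7 receptor and the mTOR and AKT lists. All the lists were chosen with earlier results of these data known.

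S1pr1, the sphingosine-1-phosphate receptor through which T cells leave lymphoid organs and a known KLF2 target, measured 10.36, 10.12 and 10.18 in the rapamycin mice, against 10.88, 10.58 and 10.59 in the PBS mice. Its difference was -0.46 (SE 0.11), with an adjusted p of 0.814 in limma. Tgfbr2, a receptor chain for TGF-beta, measured 9.61, 9.73 and 9.65 with rapamycin, against 10.02, 9.83 and 10.08 with PBS, a difference of -0.32 (SE 0.09). Both were lower in every rapamycin mouse than in any PBS mouse, and both were named for the smallest p in the naive list. Klf2 itself, the factor that links FOXO1 to migration, differed by -0.29 (SE 0.12), and Rasgrp2, an activator of the small GTPase RAP1 used for adhesion, by -0.56 (SE 0.19), both with overlapping groups. Klf2 and Rasgrp2 were named after their values were seen. Ccr7, a homing receptor also known as a KLF2 and FOXO1 target, differed by only -0.10 (SE 0.24). Il7r, a member named above as a FOXO1 target, differed by -0.02, while Foxo1 transcript differed by -0.27. The other members were not sorted by whether FOXO1 acts on them.

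The list of memory precursor and TCF1-linked genes was mixed, with 8 of 13 lower and a median of -0.10. Cxcr5, the follicle-homing chemokine receptor, measured 6.31, 6.46 and 6.62 with rapamycin, against 6.80, 7.71 and 6.98 with PBS, a difference of -0.70 (SE 0.21). Axin2, a Wnt pathway target of TCF and LEF factors, differed by -0.30 (SE 0.11). Both had groups that did not overlap, and their adjusted p values were 0.970 and 0.99985 in limma. They were named for the smallest p in this direction, which favours groups that do not overlap. Of the 13 genes, 3 lay lower without overlap, against 6.28% of all genes, and 0 lay higher without overlap, against 3.14%. In the other direction Bcl6, a repressor that directs follicular helper cells, differed by 0.16 and Myb, a factor of stem-like memory cells, by 0.14, with overlapping groups.

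Effector genes linked to T-bet and EOMES went both ways, with 13 of 19 lower, a median of -0.07 and 0 called. Il12rb2, an IL-12 receptor chain and a known T-bet target, measured 10.78, 11.60 and 11.15 with rapamycin, against 10.42, 10.37 and 10.56 with PBS. Its difference was 0.73 (SE 0.18), with an adjusted p of 0.814 in limma. S1pr5, an egress receptor that T-bet drives in mouse NK cells, differed by -0.59 (SE 0.12), and Cxcr3, a chemokine receptor that T-bet also drives, by -0.30 (SE 0.10). Il18rap differed by 0.14. These genes were named for the smallest p in each direction, so their differing signs follow from that choice. The Tbx21 difference was -0.08.

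Factors of effector and terminal differentiation were higher in 10 of 15 genes, with a median of 0.05. Tox, a factor of exhausted and memory-like cells, measured 11.13, 11.23 and 11.17 with rapamycin, against 11.46, 11.46 and 11.41 with PBS, a difference of -0.26 (SE 0.07). Nfil3 differed by 0.22 (SE 0.08). Groups did not overlap for either, and both missed the adjusted threshold. Each was named for the smallest p in its direction, which favours groups that do not overlap. Of the 15 genes, 1 lay higher and 2 lay lower without overlap, against 3.14% and 6.28% of all genes. Rbpj differed by 0.20 and Ikzf3 by -0.16. Id2, the counterpart of Id3 in effector cells, differed by 0.07 (SE 0.09).

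**Figure D3:**
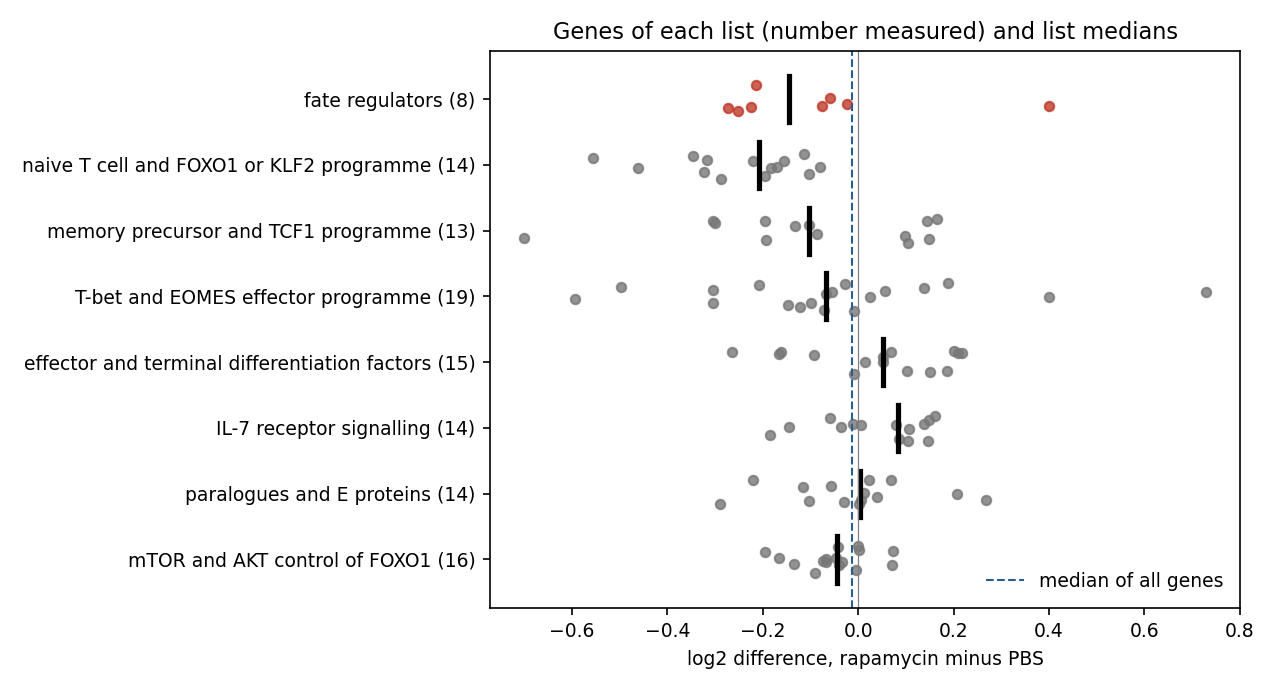
Log2 difference, rapamycin minus PBS (horizontal axis), of each measured gene (points, 3 mice per group) of the fate regulators and 7 lists of their targets and partners, with the number of genes measured in parentheses. Black bars are list medians and the dashed line is the median of all genes, -0.01. All 14 points of the naive list lie below 0 and Satb1 lies at 0.40.

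Signalling around the regulators showed 0 of 14 genes of the IL-7 receptor pathway at an unadjusted p under 0.05, with a median of 0.08. Bcl2, the survival gene that IL-7 sustains, differed by 0.15, Gfi1 by 0.15, the receptor-bound kinase Jak1 by -0.14 and the PI3K regulatory subunit Pik3r1 by -0.18. In the list of mTOR and AKT components that act on FOXO1, 12 of 16 genes were lower, the median was -0.04, and again 0 reached an unadjusted p under 0.05. Mtor differed by -0.07 (SE 0.10), the AKT-related kinase Sgk1 by -0.19 (SE 0.09), and the PI3K catalytic subunit Pik3cg by -0.17. Skp2, a ubiquitin ligase subunit that targets FOXO1, and Rheb, the GTPase that activates the first mTOR complex, each differed by 0.07. Of the 14 paralogues and E protein genes, 8 were higher and 6 lower. Among them were Tcf7l1 at -0.29 (SE 0.09), Foxp1, a further factor of T cell quiescence, at -0.22 (SE 0.09), Tcf4 at 0.27 (SE 0.11) and Id1 at 0.21. The paralogue Foxo3 differed by -0.03 (SE 0.10).

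The sort was checked against lists of markers, chosen with earlier results of these data known. Cd3e averaged 12.84 with rapamycin and 12.87 with PBS, and Cd4 and Cd8a differed by 0.14 and 0.03. Of 12 measured T cell markers 8 were lower, with Cd5 at -0.19. Several members are also expressed by B or NK cells. Over the 6 mice, 9 of 11 measured B cell markers averaged below all array medians, among them Pax5 at 5.10, Ms4a1 at 3.90 and Cd79a at 5.29, while Cd22 averaged 7.79 and Cd79b 7.11. Of 7 measured NK markers 4 averaged below, among them Ncr1 at 4.19 and Klre1 at 3.86, while Klrc1 averaged 9.87, Klrk1 8.13 and Itga2 7.76. Of the 11 measured B cell markers 6 were lower, with Cd79b at -0.54 (SE 0.11) and Cd22 at 0.01, and of 7 NK markers 4 were lower, with Itga2 at -0.65 (SE 0.23) and Klrk1 at 0.40. The B cell means ranged from 5.14 to 5.28 with rapamycin and from 5.16 to 5.32 with PBS, and the NK means from 6.09 to 6.24 and from 5.97 to 6.51. The part of these markers in the members' values was tested only through the B cell covariate, under which the Satb1 difference was 0.47 and the Foxo1 difference -0.24.

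Neutrophil markers were higher in 13 of 14 genes, with Lcn2 averaging 12.64 with rapamycin and 12.20 with PBS. Their mean ranged from 8.55 to 9.53 in the rapamycin mice and from 7.98 to 9.14 in the PBS mice. Macrophage markers were lower in 10 of 12 genes, among them Spic at -1.34 (SE 0.19), while Lyz2 differed by 0.29. Their mean ranged from 7.76 to 8.14 in the rapamycin mice and from 8.08 to 8.59 in the PBS mice. Unlike most B cell markers, only 1 of 14 neutrophil and 2 of 12 macrophage markers averaged below all array medians. Over the 6 mice Lcn2 averaged 12.42 and Lyz2 12.35, beside 12.85 for Cd3e, so some myeloid transcripts were well detected in the sorted samples. Lcn2 and Lyz2 had the highest means of their lists, while Ctsg averaged 5.79 and Ms4a7 4.14. Levels of different probe sets do not give the relative amounts of their transcripts. With the neutrophil mean as a covariate, the Satb1 difference was 0.38 and the Foxo1 difference -0.32. With the macrophage mean, an alternative added after the data were seen, these were 0.28 (unadjusted p = 0.115 in limma) and -0.31 (unadjusted p = 0.0555 in limma). The other lists were B cell precursors (4 of 7 higher), innate lymphoid cells (2 of 3 lower), erythroid cells (5 of 6 higher), dendritic cells (6 of 9 lower) and plasma cells (5 of 6 higher). Their part in the members' values was not tested. In bulk RNA, fewer cells of a type and less RNA per cell cannot be told apart.

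**Figure D4:**
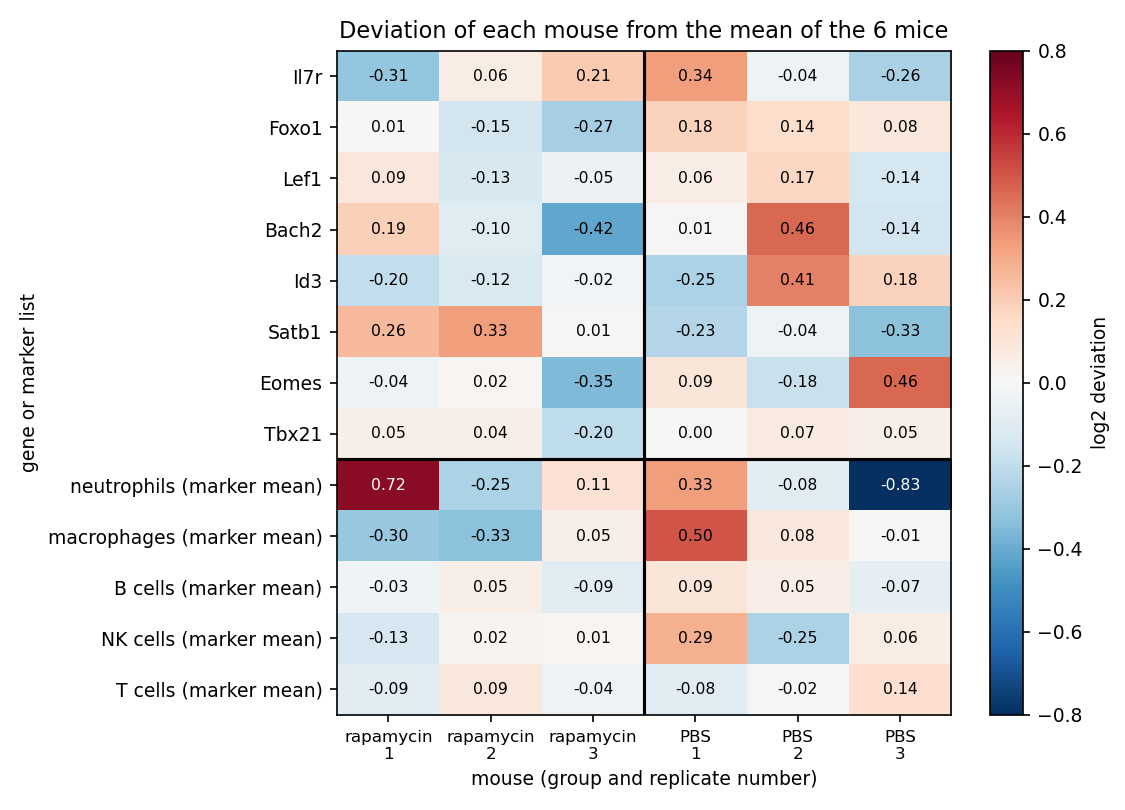
Deviation of each mouse (columns, 3 rapamycin mice left and 3 PBS mice right) from the mean of the 6 mice, in log2, for the 8 genes (upper rows) and the means of 5 marker lists (lower rows). Satb1 is at or above 0.01 in all rapamycin mice and below 0 in all PBS mice, and the neutrophil mean runs from -0.83 in PBS replicate 3 to 0.72 in rapamycin replicate 1.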

How the data were processed

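Per the labels' protocols, CD3-positive spleen cells were sorted by flow cytometry, and Trizol-extracted RNA was labelled by a whole-transcript sense protocol. The deposited values are log2 expression, made by the authors with Affymetrix Expression Console and RMA per the submitters' processing notes. No version or summary level is given in the sources used here. RMA gives arrays a common distribution, so a shift shared by most genes would not be seen. Groups and replicate numbers were read from the titles, where each sample is a biological replicate.

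Of 35556 probe sets, 21789 name 1 symbol in the platform's probe table, 1621 name several and 12146 are not listed. The probe set with the highest mean over the 6 arrays stood for each of 19938 genes. The test was limma 3.58.1 in R 4.3.3 (lmFit and eBayes with a group term alone), two-sided, with Benjamini-Hochberg adjustment over all genes. The procedure was also tested on simulated data. Figures used Python 3.11.15 and matplotlib 3.10.9. The alternatives were a replicate block, leaving out each mouse, array weights, an intensity trend, a filter on low genes, subtracted array medians, mean or all probe sets, marker covariates and an exact permutation test.

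The members and the 7 pathway and 10 marker lists were chosen with earlier results of these data known. Named genes are the members, from each pathway list the 2 with the smallest p that lay higher and the 2 that lay lower, genes of high mean or small p in each marker list, and Glp1r, Cd3e, Cd4, Cd8a and Mtor. Ccr7, Klf2, Rasgrp2, Id2, Foxo3 and some markers do not follow it and were picked with their values in view. Same-numbered mice of the 2 groups did not deviate together (correlations of deviations across genes of 0.0861, -0.192 and 0.195), so the numbers were not taken as pairs.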

Additional observations from a re-analysis of the deposited data

How the results depend on the processing

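Over 16 alternatives (15 for Bach2 and Id3, which the filter on low genes removed), none of the measured fate regulators passed the adjusted threshold, with the lowest adjusted p at 0.419 for Foxo1 under the neutrophil covariate. Satb1 stayed higher (0.28 to 0.50) and Foxo1 lower (-0.34 to -0.21) in all 16. The replicate block, the intensity trend, the filter on low genes, and mean or all probe sets could not change these differences. Agreement in direction under those settings was fixed in advance. Unadjusted limma p values were under 0.05 in 15 of 16 for Satb1 and in 13 of 16 for Foxo1. The Foxo1 p in limma was 0.0636 without rapamycin replicate 3 and 0.0514 without PBS replicate 1. The exact permutation test is not counted in the 16 and gave p = 0.1 for both genes, the smallest it allows. The members at an unadjusted p under 0.05 numbered 1 to 3 when 1 mouse was left out, against 2 with all mice, and 0 with the macrophage covariate. Il7r turned positive without rapamycin replicate 1 (0.12), without PBS replicate 1 (0.14), with array weights (0.013), with the B cell covariate (0.058) and with the macrophage covariate (0.36, unadjusted p = 0.0581 in limma). Leaving out 1 mouse gave -0.37 to -0.04 for Bach2, -0.41 to -0.08 for Id3, -0.40 to -0.09 for Eomes, -0.16 to 0.14 for Il7r, -0.14 to 0.010 for Lef1 (positive without PBS replicate 2) and -0.12 to 0.0073 for Tbx21 (positive without rapamycin replicate 3). The cause was not tested. Genes called over the whole table numbered 0 to 7 when 1 mouse was left out (7 without rapamycin replicate 1), 3 with the neutrophil covariate, and 0 with the replicate block, all probe sets, the B cell covariate or the macrophage covariate, against 1. Negative differences in the naive list numbered 11 to 14 of 14 when 1 mouse was left out, and 11 with the B cell covariate. The replicate block changed no call of a fate regulator, with a Satb1 p of 0.00221 and a Foxo1 p of 0.0150, both unadjusted in limma. Each regulator had 1 probe set, so another probe set could not be compared.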
